A study of Arabidopsis thaliana with 6 samples.

Results

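The first dehydration of *Arabidopsis thaliana* rosette leaves (S1) was compared with the leaves of watered plants (W) over all genes whose mean FPKM was at least 1 in W or in S1. FPKM, as the authors deposited them for each gene and library, are fragment numbers scaled by transcript length and by library size. Of the 33555 genes listed, 18030 met this limit. The comparison rests on 4 of the 6 libraries of the series, 2 for W and 2 for S1, and the 2 libraries of the third dehydration entered the fit only through the spread between replicates. All plants were grown in potting soil, taken out of it and conditioned overnight in humid chambers. W leaves were sampled after this conditioning, and S1 leaves after 2 h of air-drying. Every sample is labelled with ecotype Col-0 and, in a separate field, with genotype WS. The age of the plants and the hour of sampling are not given in the sources used here. Reads were longer in W than in S1. Air-drying and read length therefore change together between the groups, and their effects cannot be told apart.

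The files hold no read counts, but the low FPKM values fall on steps of whole reads. Of the ratios between replicates of genes at under 0.3 FPKM with 1 annotated transcript, 95.9% in W (1011 genes) and 91.5% in S1 (1384 genes) were ratios of whole numbers up to 12. From these steps, 1 read on a transcript of 1000 bases was worth about 0.044 FPKM in W replicate 1, 0.0362 in W replicate 2, 0.03 in S1 replicate 1 and 0.0273 in S1 replicate 2, so that the S1 libraries were the deeper ones. From 21139 to 22283 genes of a library were above 0. Mean FPKM differences were tested on log2(FPKM + 1) with limma, and a log2 fold change is the difference between the S1 and W means on this scale, which understates the change of genes at low FPKM. The median standard error of a log2 fold change was 0.148, and it was 0.111 to 0.285 over the middle 90% of the genes. A transcript level was called higher or lower in S1 when the p-value, adjusted by the Benjamini-Hochberg method over the 18030 genes, was at most 0.05 and the absolute log2 fold change at least 1. With 2 biological samples a group, the p-values measure the spread between these samples. In the sentences below, the values of a group are those of replicates 1 and 2 in this order, and errors are standard errors.

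The leaf label was checked against marker genes. Light harvesting and photosystem genes, which mark mesophyll, held 19.4 to 21.0% of the summed FPKM in W and 9.47 to 11.0% in S1. Markers of other organs were at or near 0. Of 5 root markers, EXPA7, CASP1 and PHT1;1 were listed at 0 in all 4 libraries, and the summed level of the 5 was at most 0.000325% of a library. *BGLU23*, the 1 root marker tested, was at 0.0826 and 0.294 FPKM in W and at 0.953 and 3.15 FPKM in S1, a call that was lost without W replicate 1 (adjusted p = 0.0747) and without S1 replicate 2 (log2 fold change of 0.72). Of 4 seed markers, OLEO1 and CRU3 were listed at 0 in all 4 libraries, and *SESA1*, the 1 tested, was listed at 0 in W and at 1.05 and 1.85 FPKM in S1. All 4 flower markers stayed below the limit of 1 FPKM. Within the leaf, 2 of 7 guard cell markers rose and 1 fell (summed level 0.204 to 0.221% in W, 0.161 to 0.218% in S1), 1 of 4 epidermis markers rose and 1 fell (0.0156 to 0.022% and 0.0317 to 0.0351%), and 4 of 4 phloem markers rose. Over all genes tested, 19.0% were higher and 16.8% lower, and no shift of guard cells or epidermis is read from these counts. *SUC2*, the sucrose transporter of phloem companion cells, was at 52.7 and 44.1 FPKM in W and at 237 and 254 FPKM in S1. The summed phloem markers were 0.0143 to 0.0155% of all FPKM in W and 0.0672 to 0.077% in S1, and their part in the results below was not tested. In whole leaves, more or fewer cells of a type and more or less RNA per cell cannot be told apart.

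Loss of water from a leaf is known to raise abscisic acid (ABA). The hormone binds PYR/PYL receptors, which then hold back the clade A protein phosphatases 2C (PP2C), and the SnRK2 kinases set free in this way act on bZIP transcription factors that bind the ABA-responsive element of promoters. The protective proteins made downstream include dehydrins and other late embryogenesis abundant (LEA) proteins, while growth and photosynthesis genes are known to be held back. Jasmonate, another stress hormone, is made from lipids of the chloroplast and acts through the degradation of JAZ repressors.

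Transcript levels of 3428 genes were higher in S1 (19.0% of the genes tested) and those of 3023 genes were lower (16.8%). Together these were 35.8% of the genes tested, and 11579 genes did not pass the criteria. The median log2 fold change over all genes tested was 0.02. Rises were larger than falls: leaving out genes listed at 0 in both W libraries, 280 genes rose by at least 4 on the log2 scale and 65 fell by as much, and 11 genes rose by at least 8 while none fell by that much. Genes of higher transcript level in S1 held 8.27 and 10.1% of the summed FPKM in W and 45.6 and 48.0% in S1. Without those listed at 0 in both W libraries, the S1 shares were 40.9 and 44.0%. Genes of lower transcript level went from 41.7 and 38.2% to 12.4 and 10.5%. After scaling all libraries to an equal sum, the median moved to -0.06 and the counts to 3169 higher and 3321 lower, so that which direction holds more genes depends on the scaling.

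**Figure D1:**
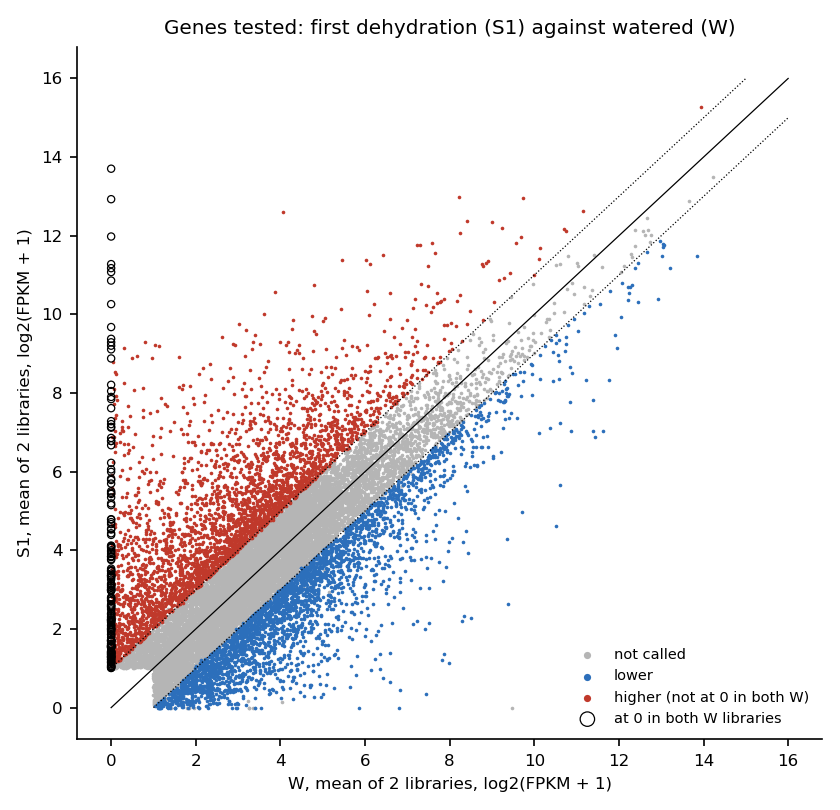
Mean transcript level in S1 (vertical axis) against W (horizontal axis), both as log2(FPKM + 1), for the 18030 genes tested, 1 point a gene. Solid line, equal levels; dotted lines, a difference of 1. Red, 3294 genes higher in S1 that had a value in W; blue, 3023 lower; grey, not called; open circles, the 168 genes listed at 0 in both W libraries, up to the light harvesting gene *LHCB1.3* near 13.7.

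**Figure D2:**
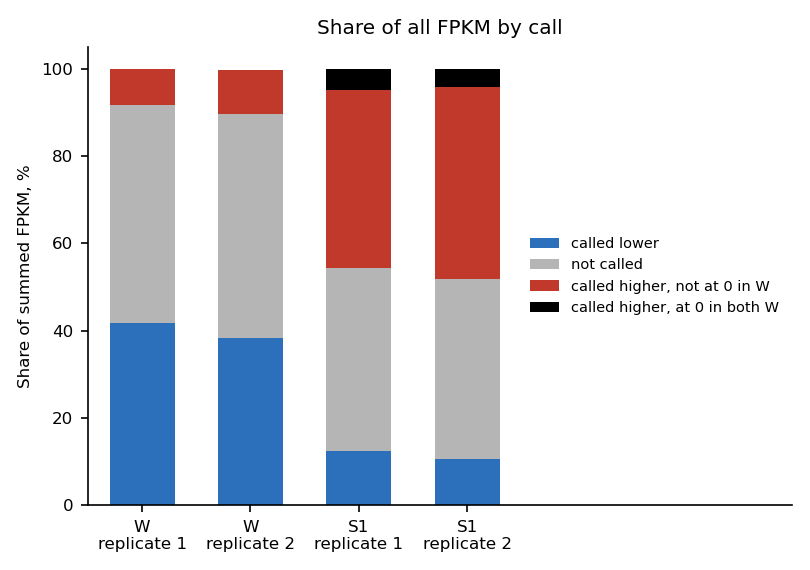
Share of the summed FPKM of each library (vertical axis, %) held by genes called lower, not called, called higher, with those called higher split by whether both W libraries list them at 0. Genes called lower shrink from 41.7 and 38.2% in W to 12.4 and 10.5% in S1, while genes not called stay between 41.4 and 51.5%.

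Replicates within a group did not scatter evenly around the stress response. Of the 3294 genes called higher that had a value in W, 2281 had a higher value in W replicate 2 than in W replicate 1, as did 950 of the 3023 genes called lower. In S1, replicate 2 was above replicate 1 in 2227 of the 3294 and in 717 of the 3023. The second library of each group thus lay further towards the stress side for most responding genes. Leaving out W replicate 1 gave 3299 higher and 2741 lower genes, leaving out W replicate 2 gave 3591 and 3296, and without S1 replicate 1 or 2 they were 3587 and 3261, or 3291 and 2747.

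The 12 largest rises, among genes that averaged 10 FPKM or more in S1 and had a value in W, held protective proteins, ABA signalling and jasmonate turnover. *RNS1*, a secreted ribonuclease known from phosphate starvation and wounding, was at 0.105 and 0.347 FPKM in W and at 690 and 438 FPKM in S1, a log2 fold change of 8.82 ± 0.25 (adjusted p = 1.71e-06). *LEA7*, a late embryogenesis abundant protein, was at 0.0541 and 0 FPKM in W and at 377 and 502 FPKM in S1 (8.73 ± 0.19, adjusted p = 7.96e-07). *RD20*, a calcium-binding caleosin of lipid droplets, was already expressed in W at 10.7 and 20.5 FPKM and reached 6164 and 6314 FPKM in S1 (8.62 ± 0.27, adjusted p = 2.33e-06). For each of the 3, both S1 libraries were far above both W libraries. Of the 18030 genes tested, 8017 had both S1 libraries above both W libraries and 7726 had both below, so separation alone does not set these genes apart. *ST2A*, whose sulfotransferase acts on 12-hydroxyjasmonate, rose from 0.577 and 0.92 FPKM to 742 and 515 FPKM. *NATA1*, an acetyltransferase of ornithine induced by jasmonate, rose from 0.403 and 1.99 FPKM to 599 and 580 FPKM. The other members of this group were *TSPO*, the LEA family gene AT3G02480, *RD29B*, *HAI1*, *NAC019*, the oxygenase family gene AT2G38240 and the U-box ubiquitin ligase gene *PUB19*, with log2 fold changes of 7.95 (*PUB19*) to 8.40 (*TSPO*).

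The 12 largest falls, under the same limit on the level in W, held cell wall, auxin and immune genes. *EXPA8*, an expansin that loosens cell walls, was at 171 and 175 FPKM in W and at 0.407 and 0.124 FPKM in S1 (log2 fold change of -7.11 ± 0.15, adjusted p = 7.36e-07). *GER3*, a germin-like cell wall protein, fell from 375 and 128 FPKM to 2.14 and 0.244 FPKM (-6.80 ± 0.57, adjusted p = 7.65e-05). AT1G19960, annotated only as a transcription factor, fell from 574 and 746 FPKM to 6.46 and 3.96 FPKM (-6.75 ± 0.22, adjusted p = 2.76e-06). These levels left the groups apart in every library, as in all 7726 genes tested with both S1 libraries below both W libraries. *ACD6*, an ankyrin-repeat protein of salicylic acid dependent defence, fell from 273 and 177 FPKM to 1.93 and 0.671 FPKM, and *LURP1*, a defence gene, from 216 and 249 FPKM to 1.02 and 2.16 FPKM. The Toll/interleukin-1 receptor-like gene *TIR* fell from 342 and 307 FPKM to 5.08 and 3.01 FPKM. The remaining named falls were those of AT4G38860 of the SAUR family of auxin-induced small proteins, the gibberellin-regulated *GASA6*, the legume lectin gene AT5G03350 and the EF-hand gene AT2G41090, between -5.95 and -6.40 on the log2 scale.

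For 3 of the 12 falls, a value was shared exactly with another gene. *MIR825*, a microRNA precursor of 186 bases, was at 1719 and 1414 FPKM in W and at 0 and 98.6 FPKM in S1 (log2 fold change of -7.29 ± 1.83, adjusted p = 0.0105). Its value in W replicate 2 is exactly that of AT3G24615, a snoRNA of 102 bases, which was listed at 0 in the other 3 libraries. Without W replicate 1 its adjusted p was 0.0581. AT4G25707 was at 143 and 78.3 FPKM in W and listed at 0 in both S1 libraries, and both W values were those of AT5G14560, whose annotated transcript has 123 bases, while AT4G25707 has one of 1229 bases in RefSeq. The value in W replicate 2 was also that of AT4G31441, with a transcript of 123 bases. For *LURP1* the one shared value was that of S1 replicate 2, 2.16 FPKM, which AT1G68725 also had. On a short transcript a large FPKM can stand for few reads.

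**Figure D3:**
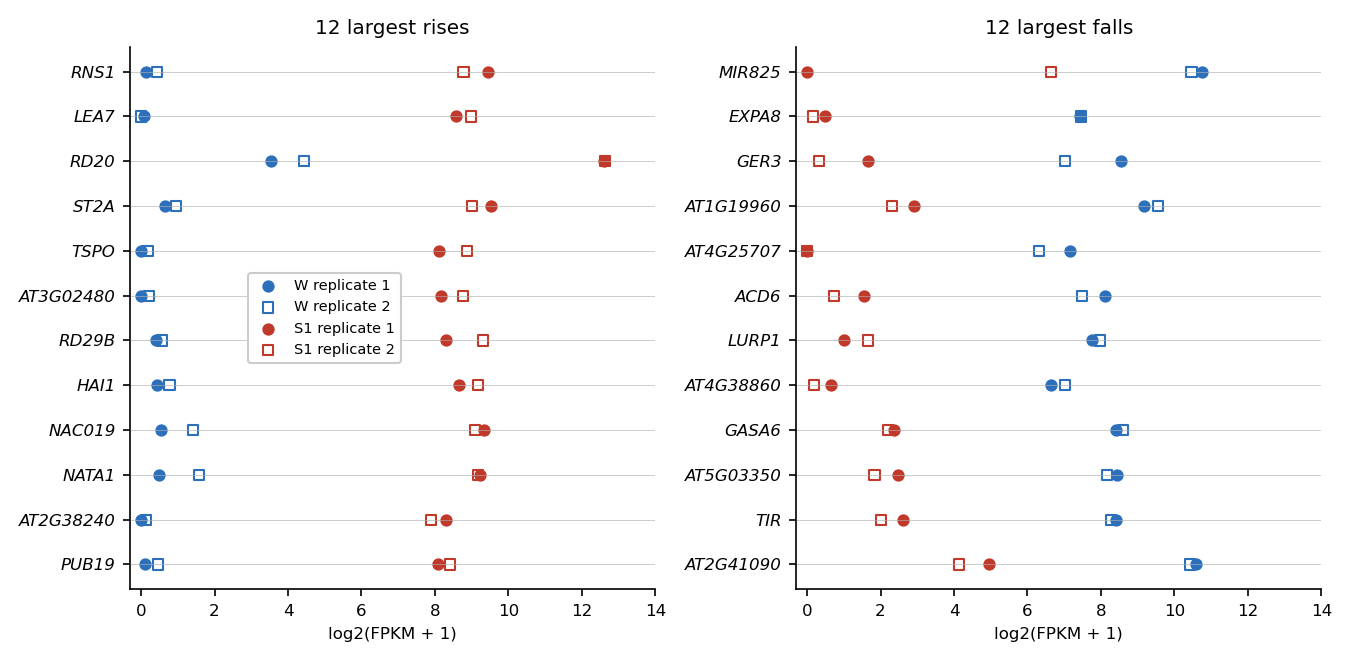
Transcript level, log2(FPKM + 1) on the horizontal axis, in each of the 4 libraries for the 12 largest rises (left) and 12 largest falls (right). Blue, W; red, S1; filled circles, replicate 1; open squares, replicate 2. The groups do not overlap in any of the 24 genes, which were chosen for large changes. Of all 18030 genes tested, 8017 had S1 wholly above W and 7726 wholly below. *MIR825* has the widest spread in S1, from 0 to 98.6 FPKM.

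The 250 bases upstream of the annotated start are shown for the 3 largest rises and the 3 largest falls among protein-coding genes, because the core of the ABA-responsive element was more frequent upstream of genes that rose. They were read from the TAIR10.1 assembly with RefSeq gene models. Capitals mark the letters ACGTG, the core of this element, or their reverse complement CACGT. The windows are chr2:873256-873505, plus strand for *RNS1*, chr1:19619474-19619723, plus strand for *LEA7*, chr2:14146556-14146805, minus strand for *RD20*, chr2:16950706-16950955, minus strand for *EXPA8*, chr5:6976037-6976286, minus strand for *GER3* and chr1:6927486-6927735, plus strand for AT1G19960. No other annotated gene overlaps a window.
RNS1: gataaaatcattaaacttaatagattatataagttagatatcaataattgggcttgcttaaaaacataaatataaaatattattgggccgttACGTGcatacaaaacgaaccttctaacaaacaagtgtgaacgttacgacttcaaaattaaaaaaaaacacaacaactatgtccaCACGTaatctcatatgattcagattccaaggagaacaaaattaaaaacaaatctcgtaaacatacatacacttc
LEA7: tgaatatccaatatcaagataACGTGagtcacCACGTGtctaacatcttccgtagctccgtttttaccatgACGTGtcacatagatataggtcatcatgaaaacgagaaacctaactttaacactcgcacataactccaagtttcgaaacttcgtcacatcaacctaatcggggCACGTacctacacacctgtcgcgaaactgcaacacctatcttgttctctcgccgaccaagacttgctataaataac
RD20: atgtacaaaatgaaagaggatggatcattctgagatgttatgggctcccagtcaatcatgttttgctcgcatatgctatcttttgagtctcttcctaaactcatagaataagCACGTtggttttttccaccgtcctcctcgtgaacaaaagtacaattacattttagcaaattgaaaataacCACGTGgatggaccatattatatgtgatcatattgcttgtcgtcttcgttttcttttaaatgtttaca
EXPA8: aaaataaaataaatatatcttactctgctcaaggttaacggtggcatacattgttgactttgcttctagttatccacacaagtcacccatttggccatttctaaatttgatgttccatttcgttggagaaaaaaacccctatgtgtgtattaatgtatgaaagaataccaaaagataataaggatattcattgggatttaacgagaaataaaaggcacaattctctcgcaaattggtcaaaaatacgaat
GER3: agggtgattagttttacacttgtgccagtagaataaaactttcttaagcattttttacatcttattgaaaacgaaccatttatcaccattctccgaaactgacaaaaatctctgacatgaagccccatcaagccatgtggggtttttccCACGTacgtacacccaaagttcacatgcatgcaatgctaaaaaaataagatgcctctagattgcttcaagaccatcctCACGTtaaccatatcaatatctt
AT1G19960: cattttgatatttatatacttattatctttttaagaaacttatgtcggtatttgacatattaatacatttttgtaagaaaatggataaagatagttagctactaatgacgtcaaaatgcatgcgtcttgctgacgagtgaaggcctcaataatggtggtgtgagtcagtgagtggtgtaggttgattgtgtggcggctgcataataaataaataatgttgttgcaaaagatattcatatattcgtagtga
The core was present at 4 places upstream of *LEA7*, at 2 upstream of *RNS1* and of *RD20*, at 2 upstream of *GER3*, and not in the windows of *EXPA8* and AT1G19960. The palindrome CACGTG, the G-box, was in the windows of *LEA7* and *RD20*.

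Over all genes, the core ACGTG was in 33.3% of the 3395 windows of genes called higher, 19.6% of the 3016 windows of genes called lower and 21.7% of those of genes not called, with both strands searched. It was in 20.8% of the windows of all 37897 nuclear genes of the annotation and in 49.3% of the 280 windows of genes that rose by at least 4 on the log2 scale. The longer form ACGTGTC was in 8.25% of the windows of genes called higher and 3.38% of those called lower, and the form ACGTGGC in 6.13 and 3.42%. The G-box CACGTG, which contains the core, was in 13.0 and 5.67%. The core ACCGAC of the dehydration-responsive element, bound by DREB factors, was in 7.60 and 3.88%, and GCCGAC in 4.54 and 2.12%. In the other direction, the site II element GGCCCA, known from promoters of ribosomal protein and other growth genes, was in 10.0% of the windows of genes called higher, 17.8% of those called lower and 19.3% of those not called. The W-box TTGACC, bound by WRKY factors, was in 12.5 and 11.6% and the evening element AAATATCT in 5.77 and 5.44%. A match describes the letters of a window and not a bound site.

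Transcripts shorter than a read of the W libraries were marked. Of 722 such genes listed, none had a value above 0 in either W library and 19 had one in S1. All 13 that were tested were thus at 0 in both W libraries, and 11 of them were called higher. Of these 13, 12 were snoRNAs or snRNAs, small nuclear RNAs that guide RNA modification or splicing and lack a poly(A) tail. The 3 with the highest S1 levels are snoRNAs: AT1G74456 was listed at 0 in both W libraries and at 2435 and 2531 FPKM in S1, AT2G35744 at 0 in W and at 2091 and 2535 FPKM in S1, and AT2G35747 at 0 in W and at 3393 and 925 FPKM in S1. Without any 1 of the 4 libraries the call of AT2G35747 was lost, with adjusted p between 0.0577 and 0.0869. Their sequences show how short these transcripts are, with 82, 79 and 80 bases, and capitals mark TGATGA and CTGA, the letters of the C and D boxes of box C/D snoRNAs. They lie at chr1:27984745-27984826, minus strand, chr2:15029712-15029790, minus strand and chr2:15029832-15029911, minus strand, on TAIR10.1.
AT1G74456: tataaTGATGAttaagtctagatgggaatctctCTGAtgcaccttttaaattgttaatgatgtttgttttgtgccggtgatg
AT2G35744: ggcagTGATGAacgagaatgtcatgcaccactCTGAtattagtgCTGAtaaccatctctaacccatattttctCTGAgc
AT2G35747: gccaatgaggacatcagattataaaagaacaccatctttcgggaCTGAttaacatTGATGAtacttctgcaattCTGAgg
A read of the W libraries cannot lie within any of them, so the difference of these genes cannot be told apart from the read length.

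**Figure D4:**
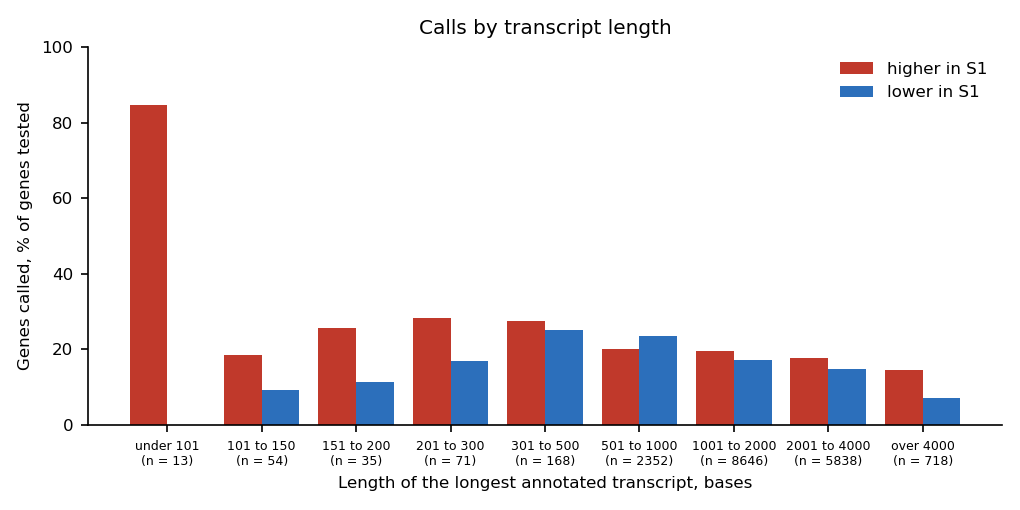
Share of genes called higher (red) and lower (blue) in S1 (vertical axis, %) by the length of the longest annotated transcript (horizontal axis, bases, with the number of genes tested). The 13 genes of the shortest bin stand apart with 84.6% higher and 0% lower, and over 4000 bases 14.6% were higher and 7.24% lower.

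Beyond these, the share of genes called varied with length. Among transcripts of 301 to 500 bases, 27.4% of 168 genes were higher and 25.0% lower, and among those over 4000 bases, 14.6% of 718 were higher and 7.24% lower. With a correction of the fold changes for transcript length and GC content 3454 genes were higher and 2984 lower, of which 3234 and 2761 were also called without it.

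Of the genes tested, 168 were listed at 0 in both W libraries, and 134 of them were called higher. They included 125 protein-coding genes, 12 snoRNAs and 7 miRNA precursors, and 63 of the 168 averaged 10 FPKM or more in S1. Among those with longer transcripts, the highest were genes that leaves are known to express at high level. *LHCB1.3* (CAB1), a chlorophyll-binding protein of the light harvesting antenna, was listed at 0 in both W libraries and at 14866 and 11840 FPKM in S1. *RBCS1A*, a small subunit of RuBisCO, was listed at 0 in W and at 9517 and 6085 FPKM in S1. AT3G08520, a ribosomal protein L41 gene with a transcript of 246 bases, was listed at 0 in W and at 4677 and 3403 FPKM in S1. A 0 in these tables can be a failed estimate, and no fold change is given for these genes. Their near copies had values in W: *LHCB1.2* (CAB3) was at 16884 and 12356 FPKM there and *RBCS3B* at 9205 and 7429 FPKM. Of the windows as long as a W read along the longest *LHCB1.3* transcript, 3.1% occur in another *LHCB1* transcript, and of those of *RBCS1A* none occur in another small subunit transcript. Another gene, *RAP2.6*, an ERF transcription factor gene named here after its values were seen, has a transcript of 1045 bases. It was listed at 0 in W and at 660 and 443 FPKM in S1, and whether its 0 is a failed estimate was not tested.

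Genes just above and just below the limit of 1 FPKM show what it removed. The repeat protein genes AT5G59600, at 0.967 and 1.03 FPKM in W and 0.469 and 0.396 FPKM in S1, and AT1G34160, at 1.01 and 0.991 FPKM in W and 0.815 and 0.583 FPKM in S1, were just inside. *GATA2*, at 1.16 and 0.836 FPKM in W and 0.267 and 0.122 FPKM in S1, and the peroxidase gene AT4G26010, at 0 in W and 0.851 and 1.15 FPKM in S1, were just outside.

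**Figure D5:**
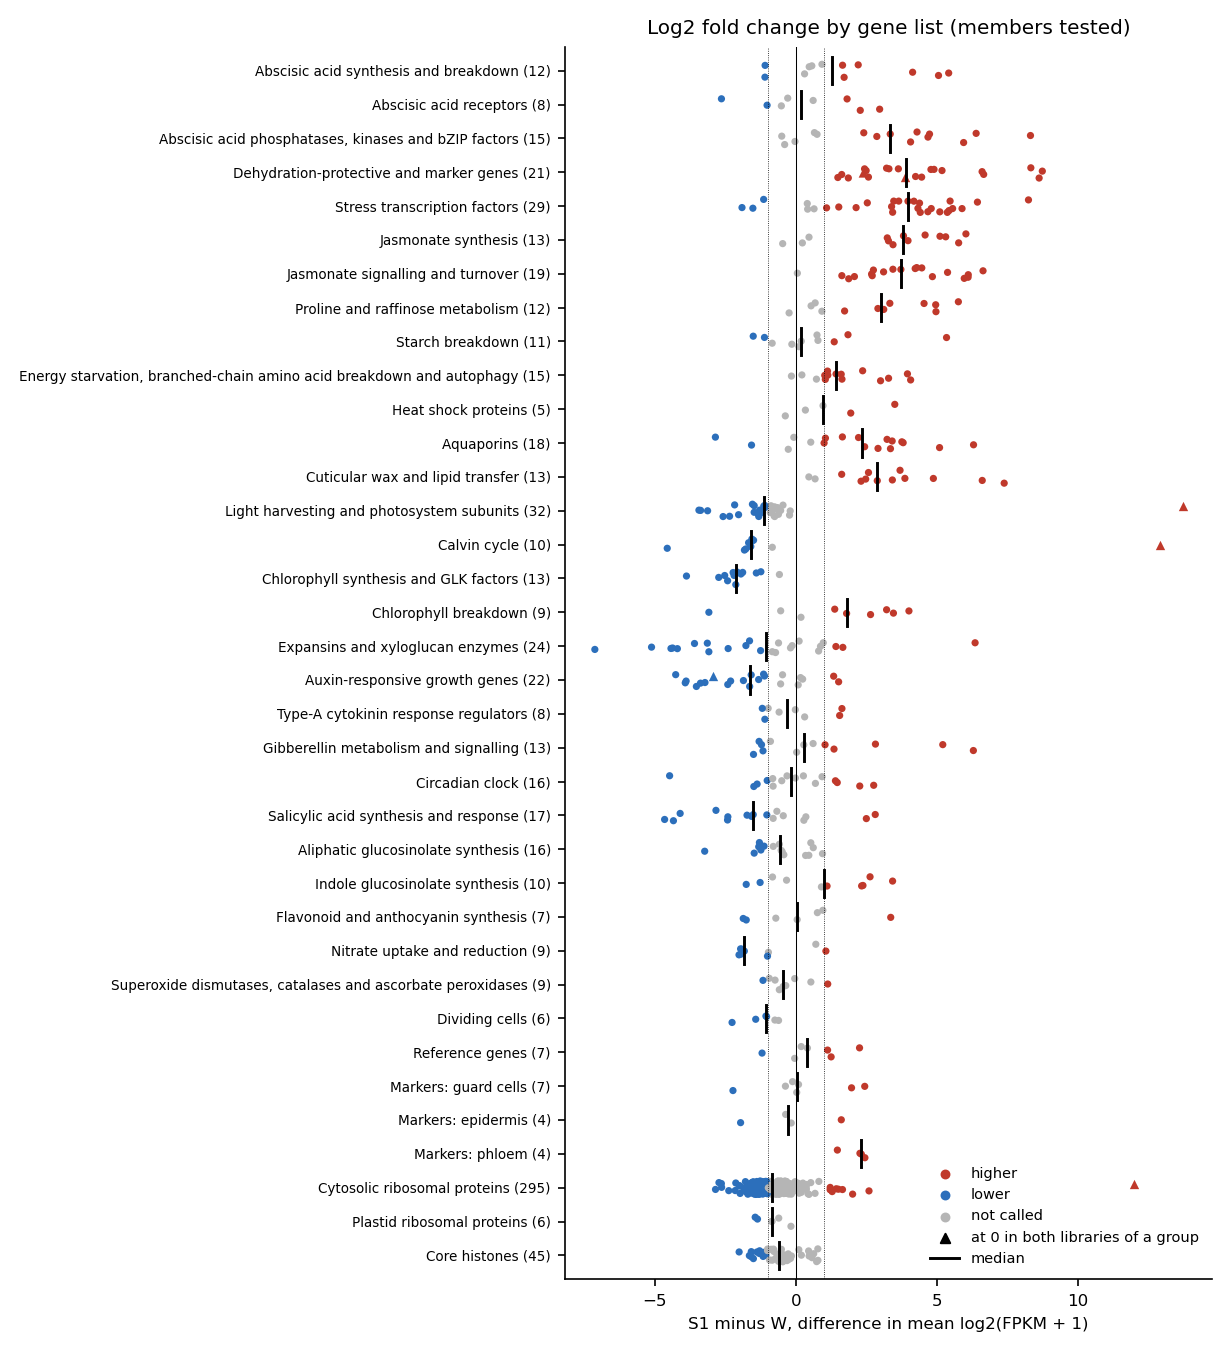
Log2 fold change of every tested member of the gene lists (horizontal axis, S1 minus W on log2(FPKM + 1)), with the number of members tested in parentheses. Red, higher; blue, lower; grey, not called; triangles, genes listed at 0 in both libraries of a group; black bars, medians. The dehydration-protective list lies wholly above 1, with a median of 3.89, and the chlorophyll synthesis list has its median at -2.12.

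Counts in this and the following lists are read beside the shares over all genes tested, 19.0% higher and 16.8% lower. Of 15 genes of ABA synthesis and breakdown listed, 12 were tested, 6 rose and 2 fell, with a median log2 fold change of 1.29. *NCED3*, the cleavage enzyme that limits ABA synthesis, was at 4.03 and 5.46 FPKM in W and at 170 and 209 FPKM in S1 (5.05 ± 0.19, adjusted p = 3.69e-06). *BGLU18*, a glucosidase that frees ABA from its glucose ester, rose from 43.6 and 85.5 FPKM to 2501 and 2798 FPKM (5.41 ± 0.44, adjusted p = 7.17e-05). *AAO3* of the last step (1.71 ± 0.17) and *ABA3* (1.66 ± 0.12) rose less, and *ABA2* (-1.08 ± 0.12) and *ABA4* (-1.09 ± 0.11) of earlier steps fell. Breakdown rose as well: *CYP707A3*, an ABA 8'-hydroxylase, went from 0.439 and 0.768 FPKM to 23.3 and 31.4 FPKM (4.14 ± 0.19), and *CYP707A1* from 0.32 and 0.405 FPKM to 5.19 and 5.43 FPKM (2.21 ± 0.13).

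The receptors did not move as a group: of 8 tested, 3 rose and 2 fell, with a median of 0.17. *PYL7* rose from 17.4 and 18.8 FPKM to 150 and 148 FPKM (2.97 ± 0.13) and *PYL5* from 0.669 and 0.843 FPKM to 8.81 and 6.44 FPKM (2.28 ± 0.18). In contrast, *PYL4* fell from 11.4 and 9.66 FPKM to 0.848 and 0.864 FPKM (-2.63 ± 0.14, adjusted p = 1.16e-05). The other fall, that of *PYL2* at -1.02 ± 0.22, lay at the limit of the call, and the number of falling receptors was 1 without W replicate 2 or without S1 replicate 2. Downstream, 10 of 15 phosphatase, kinase and bZIP genes rose and none fell, with a median of 3.35. All 7 PP2C genes tested were among the risers. *HAI1* was at 0.34 and 0.712 FPKM in W and at 400 and 575 FPKM in S1 (8.31 ± 0.20, adjusted p = 1.06e-06), and *HAB1* rose from 2.33 and 3.28 FPKM to 210 and 255 FPKM (5.94 ± 0.19). Both genes encode negative regulators of the ABA response. The kinase genes *OST1* (4.51 and 6.74 FPKM in W, 8.81 and 9.88 FPKM in S1), *SNRK2.2* and *SNRK2.3* did not pass the criteria. Of the bZIP factors, *ABF3* rose from 11.2 and 12.7 FPKM to 200 and 231 FPKM (4.07 ± 0.13) and *ABF2* by 3.35 ± 0.16, whereas *ABF1* (-0.39 ± 0.14) and *ABF4* (0.75 ± 0.14) did not pass.

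All 21 dehydration-protective and marker genes rose, against 19.0% of all genes tested, and their median was 3.89, or 4.24 without the 2 listed at 0 in W. The list was taken from genes known for this response, so its direction is no independent finding. *RD29A*, a hydrophilic stress protein, went from 175 and 208 FPKM to 3586 and 3661 FPKM (4.24 ± 0.17), and *RD29B* from 0.32 and 0.488 FPKM to 316 and 635 FPKM (8.32 ± 0.30). The dehydrin gene *COR47* was at 238 and 359 FPKM in W and at 7499 and 8748 FPKM in S1 (4.79 ± 0.24). These genes differed widely in their W level. *KIN2*, the smallest riser, was abundant before the stress, at 2159 and 2357 FPKM in W and 6374 and 6303 FPKM in S1 (1.49 ± 0.19, adjusted p = 0.000555), whereas its neighbour *KIN1* rose from 12.0 and 15.3 FPKM to 1930 and 1115 FPKM (6.65 ± 0.26). Reads could be split between such close copies by the authors' counting, though no window of *KIN1* as long as a W read occurs in *KIN2*. In all, the list took 0.556 and 0.665% of the summed FPKM in W and 5.0 and 5.1% in S1.

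Of all genes called, the gain in FPKM was largest for *MT1A*, a metallothionein that binds metals. It was at 14785 and 16565 FPKM in W and at 39455 and 39240 FPKM in S1, a log2 fold change of 1.33 ± 0.31 (adjusted p = 0.00713). Its longest annotated transcript has 138 bases, close to the read length of W. Without W replicate 1 its adjusted p was 0.0669, and with no filter on low values 0.433. Among the other large gains were *COR47*, *RD20* and *COR15A*, a chloroplast protein that protects membranes, which rose from 830 and 873 FPKM to 8625 and 7259 FPKM (3.21 ± 0.18).

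Of 29 stress transcription factors tested, 23 rose and 3 fell, with a median of 3.97. *NAC019* rose most and was at 0.452 and 1.66 FPKM in W and at 644 and 545 FPKM in S1 (8.24 ± 0.28, adjusted p = 2.88e-06), and the related *RD26* rose from 5.37 and 12.7 FPKM to 508 and 599 FPKM (5.89 ± 0.33). *HB-7*, a homeodomain-leucine zipper factor of ABA signalling, rose from 2.68 and 5.38 FPKM to 353 and 493 FPKM (6.43 ± 0.28). Factors of the DREB/CBF family split. *DREB2A*, known from drought and heat, rose from 2.37 and 2.33 FPKM to 47.9 and 55.7 FPKM (3.97 ± 0.12). The cold factors *CBF2* (5.94 and 8.44 FPKM in W, 2.19 and 1.51 FPKM in S1) and *CBF3* (22.6 and 22.1 FPKM in W, 8.53 and 10.8 FPKM in S1) fell, by 1.52 ± 0.20 and by 1.14 ± 0.14 on the log2 scale. *ORA59*, an ERF factor of the ethylene and jasmonate defence branch, fell from 2.38 and 3.27 FPKM to 0.0327 and 0 FPKM (-1.90 ± 0.16).

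Most jasmonate genes tested rose. Of 13 synthesis genes 10 rose and none fell (median 3.81), and of 19 signalling and turnover genes tested 18 rose and none fell (median 3.72). The lipoxygenase gene *LOX3*, the first step, rose from 9.07 and 8.33 FPKM to 356 and 412 FPKM (5.31 ± 0.12). *AOS*, the allene oxide synthase, rose from 167 and 189 FPKM to 1573 and 1808 FPKM (3.24 ± 0.16). Among the cyclases, *AOC1* rose from 28.2 and 57.1 FPKM to 2722 and 2643 FPKM (6.02 ± 0.30), whereas *AOC4* was at 22.8 and 24.8 FPKM in W and at 18.3 and 15.7 FPKM in S1. Together, the synthesis list went from 0.102 and 0.122% of the summed FPKM to 1.60 and 1.72%. The receptor gene *COI1* was at 10.9 and 10.9 FPKM in W and 11.6 and 11.2 FPKM in S1, with a difference of 0.06 ± 0.11 (adjusted p = 0.647). Repressor genes rose: *JAZ10* went from 0.708 and 0.669 FPKM to 162 and 171 FPKM (6.63 ± 0.31), and *JAZ5* from 0.429 and 0.431 FPKM to 92.5 and 102 FPKM (6.10 ± 0.13). *MYC2*, the factor they hold back, rose by 2.71 ± 0.21. Turnover genes rose as well, with *IAR3*, an amidohydrolase of jasmonate and auxin conjugates, at 7.72 and 11.4 FPKM in W and 677 and 757 FPKM in S1 (6.11 ± 0.22). For 17 of the 19 signalling genes the value of W replicate 2 was above that of W replicate 1.

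Of 12 genes of proline and raffinose metabolism 8 rose and none fell (median 3.01). *P5CS1*, the first enzyme of proline synthesis, rose from 75.4 and 98.3 FPKM to 675 and 842 FPKM (3.12 ± 0.22). The proline dehydrogenase genes of its breakdown rose too, *PRODH1* from 0.928 and 0.829 FPKM to 14.5 and 11.8 FPKM (2.91 ± 0.16) and *PRODH2* by 4.54 ± 0.17. For raffinose, the galactinol synthase gene *GOLS1* rose from 1.27 and 2.27 FPKM to 80.2 and 86.8 FPKM (4.95 ± 0.19), and *GOLS2* from 1.0 and 6.92 FPKM to 83.8 and 181 FPKM (4.96 ± 0.63), with a wide spread. *SIP2*, a glycosidase that degrades raffinose, rose from 8.0 and 8.04 FPKM to 444 and 533 FPKM (5.76 ± 0.16). For proline and for raffinose, genes of synthesis and of breakdown were thus both among the risers.

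In starch breakdown, 3 of 11 genes rose and 2 fell (median 0.19). Over all genes tested, 19.0% rose and 16.8% fell, and no shift of the starch list is read from its counts. *BAM1*, the beta-amylase known from stressed leaves and guard cells, rose from 17.8 and 19.3 FPKM to 724 and 857 FPKM (5.34 ± 0.16, adjusted p = 1.89e-06), and *BAM3*, the beta-amylase of nightly breakdown, from 144 and 134 FPKM to 523 and 485 FPKM (1.85 ± 0.17). The disproportionating enzyme gene *DPE2* fell from 116 and 125 FPKM to 39.0 and 44.7 FPKM (-1.51 ± 0.12). In the list of energy starvation, branched-chain amino acid breakdown and autophagy 12 of 15 rose and none fell, with a median of 1.43. *ASN1*, the asparagine synthetase of dark and starved leaves, rose from 0.242 and 0.271 FPKM to 17.0 and 23.6 FPKM (4.07 ± 0.16), and *SEN1*, a senescence marker, from 14.8 and 49.9 FPKM to 226 and 337 FPKM (3.29 ± 0.51). The W libraries of *SEN1* differed by more than those of most genes. The list held 6 *ATG8* genes, which encode the coat of autophagosomes, and not the whole family. All 6 rose, from 1.03 ± 0.18 for *ATG8F* to 3.0 ± 0.15 for *ATG8H*.

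Of 18 aquaporin genes, 13 rose and 2 fell (median 2.33). *PIP1;4*, a water channel of the plasma membrane, was at 88.2 and 80.5 FPKM in W and at 2780 and 3040 FPKM in S1 (5.09 ± 0.14, adjusted p = 1.42e-06). *PIP2;1* rose from 430 and 596 FPKM to 5421 and 4952 FPKM (3.35 ± 0.21), and *PIP2;3* (RD28) from 5.45 and 7.77 FPKM to 640 and 542 FPKM (6.29 ± 0.30). *PIP2;3* shares 12.7% of its windows of a W read length with *PIP2;2*, so their values are uncertain. Against the trend, *PIP2;8* fell from 16.2 and 9.64 FPKM to 1.28 and 0.553 FPKM (-2.84 ± 0.27) and *PIP1;5* from 182 and 281 FPKM to 65.0 and 88.1 FPKM (-1.57 ± 0.24). In the outer barrier, 11 of 13 genes of cuticular wax and lipid transfer rose and none fell (median 2.89). *LTP4*, a lipid transfer protein, rose from 0.422 and 0.954 FPKM to 237 and 323 FPKM (7.38 ± 0.21) and *LTP3* from 2.25 and 10.5 FPKM to 480 and 734 FPKM (6.60 ± 0.54). The wax alkane genes *CER1* (3.42 ± 0.29) and *CER3* (3.86 ± 0.22) rose as well. All 13 were higher in W replicate 2 than in W replicate 1.

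On the other side, genes of the photosynthetic apparatus fell by moderate folds from very high levels. In the list of light harvesting and photosystem subunits 18 of 32 fell, 13 did not pass and 1, *LHCB1.3*, was called higher from a listed 0 in W. The median was -1.12, against 0.02 for all genes. *LHCB2.2* fell from 3330 and 3672 FPKM to 340 and 309 FPKM (-3.43 ± 0.17, adjusted p = 9.3e-06) and *LHCB2.1* from 1452 and 1658 FPKM to 161 and 139 FPKM (-3.37 ± 0.18). These encode the antenna proteins that move between the photosystems. The 3 genes of the *LHCB2* type fell most, and their close copies share 0 to 12.1% of their windows of a W read length. *LHCB1.2* had the largest loss in FPKM of all genes called, from 16884 and 12356 to 3142 and 2578 FPKM (-2.34 ± 0.28). This loss is uncertain, because its near copy *LHCB1.3* was listed at 0 in W and at 14866 and 11840 FPKM in S1. The division of reads among the *LHCB1* genes was not tested. *LHCB3* fell from 10238 and 8798 FPKM to 2532 and 2146 FPKM (-2.02 ± 0.20), and the photosystem I antenna genes *LHCA1* (-1.32 ± 0.20) and *LHCA4* (-1.31 ± 0.20) fell less. At the other end, *PSBR* was at 6556 and 6354 FPKM in W and at 5824 and 5453 FPKM in S1 (-0.20 ± 0.19). Without the fold-change limit, 28 of the 32 genes were lower.

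Of 10 Calvin cycle genes 8 fell and 1, *RBCS1A*, was called higher from a listed 0. *RBCS1B* fell most, from 3824 and 2446 FPKM to 151 and 112 FPKM (-4.55 ± 0.26, adjusted p = 1.56e-05), and *RBCS3B* from 9205 and 7429 FPKM to 3476 and 2285 FPKM (-1.55 ± 0.29). How reads were divided among the small subunit genes is uncertain, with *RBCS1A* listed at 0 in W. Other enzymes of the cycle fell too, the phosphoribulokinase gene *PRK* from 1191 and 1057 FPKM to 334 and 324 FPKM (-1.77 ± 0.14) and *RCA*, which activates RuBisCO, by 1.55 ± 0.18. Together, the light harvesting, photosystem and Calvin cycle lists held 24.2 and 22.1% of the summed FPKM in W and 12.9 and 10.8% in S1, or 10.4 and 8.98% without the 2 genes at 0 in W. In 0 of the 10 Calvin cycle genes was replicate 2 above replicate 1 in W or in S1.

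In chlorophyll synthesis, 12 of 13 genes were lower and none higher, with a median of -2.12. *PORB*, the light-dependent protochlorophyllide reductase, fell from 2101 and 1650 FPKM to 163 and 98.2 FPKM (-3.87 ± 0.25), and *CAO*, which makes chlorophyll b, from 145 and 144 FPKM to 23.3 and 18.9 FPKM (-2.73 ± 0.17). The factors *GLK1* (-2.41 ± 0.13) and *GLK2* (-1.88 ± 0.15), which switch on this pathway and the antenna, fell with them. In chlorophyll breakdown 6 of 9 genes rose and 1 fell. *NYE1*, which removes magnesium from chlorophyll, rose from 5.86 and 7.36 FPKM to 72.6 and 93.2 FPKM (3.46 ± 0.16), and *PPH*, the pheophytinase, from 27.5 and 33.8 FPKM to 262 and 324 FPKM (3.22 ± 0.17). The related *SGRL* went the other way, from 110 and 116 FPKM to 15.8 and 9.85 FPKM (-3.08 ± 0.23). The median of the breakdown list was 1.8.

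Of 24 expansin and xyloglucan enzyme genes tested 12 fell and 3 rose (median -1.04). Besides *EXPA8*, the xyloglucan enzyme gene *XTH31* fell from 54.5 and 43.8 FPKM to 0.429 and 0.468 FPKM (-5.11 ± 0.15, adjusted p = 1.71e-06). The opposite was seen for *EXPA10*, which rose from 9.03 and 7.29 FPKM to 982 and 562 FPKM (6.35 ± 0.33, adjusted p = 1.12e-05). The number of rising members was 5 when W replicate 2 or S1 replicate 2 was left out. Of 22 auxin-responsive growth genes 15 fell and 2 rose (median -1.61). *SAUR20* fell from 30.0 and 37.1 FPKM to 1.06 and 0.579 FPKM (-4.25 ± 0.28) and *SAUR24* by 3.91 ± 0.28 on the log2 scale. Genes of this clustered family are close copies, so single values are uncertain. *IAA2*, an auxin repressor, rose from 46.4 and 65.6 FPKM to 177 and 144 FPKM (1.52 ± 0.19).

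Markers of dividing cells were low in these leaves and 4 of 6 tested fell, with none higher. *PCNA1*, the sliding clamp of DNA replication, fell from 18.5 and 12.4 FPKM to 3.32 and 1.66 FPKM (-2.26 ± 0.27). In 0 of the 6 was replicate 2 above replicate 1 in W or in S1, and the count of lower genes was 2 without W replicate 1 and 2 without S1 replicate 2. Of 45 genes described with the name of a core histone or of the histone superfamily, 12 fell and none rose (median -0.61). The median was -0.45 without W replicate 1. Such a description can also belong to a gene that encodes no histone. Among the 12, the histone gene *HTA10* fell from 127 and 110 FPKM to 43.9 and 34.2 FPKM (-1.58 ± 0.16). Of 295 genes whose description names a ribosomal protein with no organelle 119 fell, 9 rose and 167 were not called, with a median of -0.84. AT1G07070, of ribosomal protein L35Ae, fell from 53.8 and 29.9 FPKM to 6.06 and 4.53 FPKM (-2.72 ± 0.29). *RFC3*, of an elongation factor and ribosomal protein S6 family, fell by 2.84 ± 0.21. The wording of the descriptions also took in genes that other names place in the plastid, such as *PSRP3/1* (-1.98) and *PRPL35* (-1.52), and the translation elongation factor gene *LOS1* (-0.17, not called). The count of lower genes moved with the libraries: it was 63 without W replicate 1, 157 without W replicate 2, 143 without S1 replicate 1 and 93 without S1 replicate 2. Only 21 of the 295 were higher in W replicate 2 than in W replicate 1. Of 6 plastid ribosomal protein genes 2 fell (median -0.85), 4 without S1 replicate 1 and 1 without S1 replicate 2.

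Other hormone lists held genes of both directions, beside 19.0% higher and 16.8% lower of all genes tested. In gibberellin metabolism and signalling 5 of 13 tested rose and 4 fell (median 0.28). *GA2OX6*, which inactivates gibberellin, rose from 0.428 and 0.224 FPKM to 109 and 96.3 FPKM (6.29 ± 0.14, adjusted p = 8.06e-07), and the receptor gene *GID1B* from 0.4 and 0.768 FPKM to 52.5 and 61.9 FPKM (5.20 ± 0.17). Of the DELLA repressors, *RGL3* rose from 0.851 and 0.66 FPKM to 11.5 and 11.3 FPKM (2.82 ± 0.16), while *RGA1* fell by 1.3 ± 0.11 on the log2 scale. Type-A cytokinin response regulators, 8 tested, held 2 risers (*ARR7*, 1.63 ± 0.16, and *ARR16*, 1.55 ± 0.14) and 2 fallers (*ARR9*, -1.18 ± 0.12, and *ARR15*, -1.09 ± 0.39). Without W replicate 1, and also without S1 replicate 1, 1 of the 8 fell. The median of this list was -0.30.

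Salicylic acid genes fell, in 10 of 17 against 2 that rose, with a median of -1.51. *WRKY54* fell from 50.3 and 50.1 FPKM to 1.56 and 0.638 FPKM (-4.64 ± 0.22, adjusted p = 8.78e-06), and *WRKY70*, its close relative in defence, from 148 and 163 FPKM to 9.68 and 4.66 FPKM (-4.33 ± 0.28). *ICS1*, the synthesis enzyme, fell from 11.3 and 11.6 FPKM to 2.6 and 2.92 FPKM (-1.72 ± 0.13). The exporter gene *EDS5*, in contrast, rose from 1.57 and 2.16 FPKM to 14.2 and 16.1 FPKM (2.50 ± 0.16). *PR1*, the usual marker of this pathway, varied between the W libraries, at 3.93 and 22.2 FPKM, and was at 0.773 and 1.3 FPKM in S1 (-2.40 ± 0.86, adjusted p = 0.0412). Its call did not hold without W replicate 2 (-1.29, adjusted p = 0.229), without S1 replicate 1 (adjusted p = 0.157) or without S1 replicate 2 (adjusted p = 0.115).

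Of 16 clock genes tested, 4 rose (*ELF4*, *LUX*, *TOC1* and *FKF1*) and 4 fell (*CHE*, *PRR9*, *LNK2* and *CCA1*), with a median of -0.16. All genes tested had 19.0% higher and 16.8% lower, and no shift of the clock list is read from its counts. *ELF4* went from 28.6 and 26.0 FPKM to 180 and 202 FPKM (2.76 ± 0.24), and *LUX* from 19.5 and 17.0 FPKM to 88.9 and 94.0 FPKM (2.27 ± 0.14). *CHE*, a repressor of *CCA1*, fell from 102 and 94.2 FPKM to 3.78 and 3.18 FPKM (-4.47 ± 0.14, adjusted p = 2.03e-06). *CCA1*, which peaks at dawn, was at 3.8 and 5.03 FPKM in W and 1.49 and 1.86 FPKM in S1 (-1.01 ± 0.20), and passed the criteria neither without W replicate 2 (-0.85) nor without S1 replicate 1 (-0.91). The hour of sampling of W and S1 is not given, and the part of the time of day in these differences was not tested.

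Genes for glucosinolates, the defence compounds of this plant family, were counted by branch. Of 16 aliphatic branch genes 6 fell and none rose (median -0.55), led by the factor *MYB28*, from 55.4 and 44.1 FPKM to 4.42 and 4.37 FPKM (-3.22 ± 0.21). The lower count was 3 without S1 replicate 1, and 1 gene was higher without W replicate 2 or without S1 replicate 1. Of 10 indole branch genes tested 5 rose and 2 fell (median 1.01), among them *CYP79B3*, the first step from tryptophan, from 19.3 and 19.8 FPKM to 208 and 233 FPKM (3.43 ± 0.16). In flavonoid synthesis 1 of 7 genes tested rose and 2 fell (median 0.05), and 2 rose without W replicate 2 or without S1 replicate 2. *CHS*, chalcone synthase, fell from 52.2 and 43.8 FPKM to 10.2 and 15.1 FPKM (-1.86 ± 0.26), while the anthocyanin factor *PAP1* rose from 1.57 and 2.21 FPKM to 30.2 and 26.9 FPKM (3.36 ± 0.15). The late anthocyanin enzymes *DFR* and *LDOX* were under 1 FPKM in all 4 libraries. Of 9 nitrate genes tested 6 fell and 1 rose (median -1.82). The rising count was 2 without S1 replicate 1 (median -1.46), and 0 when libraries were scaled to the same sum or corrected for length and GC content. *NIR1*, nitrite reductase, fell from 139 and 119 FPKM to 34.0 and 37.4 FPKM (-1.82 ± 0.17), and *NIA2*, nitrate reductase, from 80.0 and 79.9 FPKM to 13.9 and 26.1 FPKM (-2.01 ± 0.53, adjusted p = 0.0131), a call that was lost without W replicate 1, W replicate 2 or S1 replicate 1 (adjusted p of 0.0598 to 0.0884).

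Of 9 superoxide dismutase, catalase and ascorbate peroxidase genes tested 1 rose and 1 fell, with a median of -0.45. *CSD1*, a cytosolic superoxide dismutase, rose from 136 and 97.7 FPKM to 292 and 221 FPKM (1.13 ± 0.21) but not past the limit without W replicate 2 (0.89) or without S1 replicate 1 (0.93). Catalase *CAT3* was at 3022 and 3228 FPKM in W and at 1850 and 2832 FPKM in S1 (-0.45 ± 0.24). Of 11 heat shock protein genes only 5 reached 1 FPKM, and 2 of these rose (median 0.97), *HSP17.6II* from 0.27 and 0.369 FPKM to 13.6 and 14.4 FPKM (3.51 ± 0.14) and *HSP70* from 2.18 and 3.42 FPKM to 11.5 and 15.8 FPKM (1.95 ± 0.20). Of 7 genes used as references in expression studies, 3 rose and 1 fell (median 0.41): *ACT2* differed by -0.04 ± 0.13 (215 and 214 FPKM in W, 194 and 225 FPKM in S1) and *TIP41* by 0.19 ± 0.13, whereas the ubiquitin gene *UBQ10* rose from 645 and 875 FPKM to 3315 and 3902 FPKM (2.26 ± 0.22) and *GAPC2* fell from 585 and 572 FPKM to 272 and 234 FPKM (-1.19 ± 0.15).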

How the data were processed

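RNA from rosette leaves of 2 biological samples each of W and S1 had been sequenced from poly(A) libraries. The deposited values are FPKM per gene and library, which the authors made with TopHat (version 0.12.8 in the submitters' processing notes), Cuffdiff and TAIR10, and reads mapping to close copies may have been divided or dropped there. Read counts were not given, so no count test was used. Values were analysed as log2(FPKM + 1) for genes averaging 1 FPKM or more in W or S1, with limma 3.58.1 (R 4.3.3), a variance trend and condition as the only term, over 6 libraries with 3 residual degrees of freedom. Calls needed an adjusted p of at most 0.05 and a log2 fold change of at least 1, as in the study, whose further limit on low FPKM was replaced by the filter above. Names, transcript lengths and sequences came from RefSeq on TAIR10.1, matched by locus for 97.8% of the genes. The script was tested on simulated data.

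The comparison and the 39 gene lists were chosen with earlier results of these data known, so a list is described by its counts and median and was not tested. Named genes were the 12 largest rises and 12 largest falls among called genes averaging 10 FPKM or more in the higher group (without transcripts shorter than a W read and genes at 0 in both W libraries), the 6 largest gains and 6 largest losses in FPKM, in each list the chosen key members and the 3 called members with the largest change, the 3 highest short transcripts and genes at 0 in W, and 2 genes on each side of the 1 FPKM limit. Some of these are given only within a count. Alternatives were another scaling, pseudocount, filter, variance model, library set, replicate block, length and GC correction, and leaving out each library.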

Additional observations from a re-analysis of the deposited data

How the results depend on the processing

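The numbers of genes called higher and lower moved by more than 1.5 times under 1 alternative, no threshold on the fold change, which gave 6528 higher and 6152 lower. Leaving out each library in turn gave 3291 to 3591 higher and 2741 to 3296 lower. A pseudocount of 0.1 gave 3998 and 3736, a minimum mean of 5 FPKM 2977 and 2469, and median-of-ratios size factors 3331 and 3118. Of 2434 values of 153 named genes under the alternatives, 2404 kept direction and call, 28 kept direction but lost the call, 2 gained it and 0 reversed. Whether replicate numbers pair the samples is not settled by these values. Same-numbered libraries of W and S1 deviated together with a correlation of 0.17, those of W and S3 with 0.026, over 13809 genes. A replicate block gave 3428 higher and 3019 lower genes, or 3457 and 2979 with a length and GC correction as well, and among named genes it cost the call of *PR1* alone (adjusted p = 0.0633 by limma). Ribosomal proteins named with no organelle had 85 lower genes under the length and GC correction without the block. The cause of these shifts was not tested. With 2 libraries a group, and FPKM in place of counts, changes of genes with few reads and of very short transcripts are the least certain.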

Other observations

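Gene families were picked after their values were seen, by the wording of the annotation, and are given as values with no test. They overlap the lists above: *WRKY54*, *WRKY70* and *NAC019*, for example, are counted in both. The counts cover genes with the wording in their annotation, not whole families. They are read beside the shares over all genes tested, 19.0% higher and 16.8% lower. Among regulators, 20 of 40 WRKY factors tested were higher in S1 and 5 lower (median log2 fold change 0.99), with *WRKY28* at 1.28 and 1.19 FPKM in W and 117 and 117 FPKM in S1. Of 39 NAC factors 22 were higher and 3 lower (median 1.25). *NAC6* (ORE1), known from leaf senescence, was at 0.405 and 1.82 FPKM in W and at 165 and 204 FPKM in S1. Of 13 MAP kinase kinase kinases 8 were higher and none lower (median 2.37), led by *MAPKKK18*, from 0.166 and 0.204 FPKM to 120 and 144 FPKM. Of 184 RING/U-box proteins 66 were higher and 10 lower (median 0.65), among them *AIRP2*, from 5.1 and 10.1 FPKM to 123 and 174 FPKM. Of 40 glutathione S-transferases, which couple glutathione to toxic compounds, 20 were higher and 4 lower (median 1.07), or 2 lower without W replicate 2 or without S1 replicate 2. Within this family *GSTU4* went from 0.0633 and 0.26 FPKM to 131 and 120 FPKM and *GSTU27* from 85.6 and 79.7 FPKM to 3.37 and 3.27 FPKM. For Dof factors, 8 of 15 were higher and none lower (median 1.05), and for plant U-box proteins 6 of 14 were higher and 1 lower (median 0.70). The wording missed the U-box gene *PUB19* and the NAC factor gene *RD26*, both called higher.

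In other families more genes were lower than higher, and their shares are read beside the 16.8% of all genes tested that were lower. Of 24 cysteine-rich receptor-like kinases 14 were lower and 2 higher, or 4 higher without W replicate 2 (median -1.22), with *CRK5* going from 10.3 and 10.2 FPKM to 0.467 and 0.68 FPKM. Of 93 leucine-rich repeat kinases 37 were lower and 8 higher (median -0.79). Of 113 disease resistance proteins 24, or 21.2%, were lower and 10 higher (median -0.28), not far from the share over all genes. AT3G04210 of this family was at 91.7 and 98.7 FPKM in W and at 0.598 and 0.56 FPKM in S1. Of 51 SAUR-like proteins 33 were lower and 8 higher (median -1.58), and of 26 genes of the NPH3 family, named for a protein of phototropism, 10 were lower and none higher (median -0.74). *NPH3* itself went from 27.5 and 27.5 FPKM to 5.02 and 3.82 FPKM. Of 20 serine carboxypeptidase-like proteins 11 were lower and 1 higher (median -1.05). Of 174 pentatricopeptide repeat proteins, which act on organelle RNA, 28 were lower, a share of 16.1% that is no larger than that over all genes, and 2 higher, or 4 without S1 replicate 1 (median -0.25). Arabinogalactan proteins of the cell wall split, with 14 of 28 lower and 5 higher (median -0.93). *AGP2* was at 2.15 and 1.92 FPKM in W and at 283 and 285 FPKM in S1, whereas *AGP16* went from 257 and 226 FPKM to 12.0 and 10.0 FPKM. Without S1 replicate 2, 9 of the 28 were lower.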
